A study of Rattus norvegicus with 6 samples.

Results

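Among all regions of the rat genome where a histone lactylation peak was called in cultured tenocytes, 2208 of 176698 (1.2%) carried H3K9la in both the control and the lactate library and no peak of H4K8la or H4K16la in either condition. Tenocytes are the fibroblast-like cells that lay down and maintain the collagen matrix of tendon. CUT&Tag, in which an antibody brings a transposase to chromatin that carries the mark, was run on wild-type (WT) cells from tendon for H3K9la, H4K8la and H4K16la, with 1 library of cells given no treatment and 1 library of cells given 20 mM lactate per mark. That makes 6 libraries in 6 groups, each from 100000 cells and 13 PCR cycles. The labels give no strain, age, sex, passage or duration of treatment, and describe the cells as cultured. Members were chosen by where peaks were called, by merging the peaks of all 6 lists that overlapped by at least 1 bp and keeping the regions with a peak in both H3K9la lists and in none of the 4 others. Because presence and absence of peaks chose them, their peak strengths and widths are given as a description, and with 1 library per group no difference has a replicate check and no p-value was computed.

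In lactylation, lysine side chains of proteins gain a lactyl group made from lactate. Lysine 9 lies in the tail of histone H3, and lysines 8 and 16 in the tail of histone H4. The same lysines can carry an acetyl group, which is known from active promoters and enhancers, so a lactylated tail shares its positions with a well-studied mark of open chromatin. A region where H3K9la was called without the H4 marks is thus one where a peak was found for the H3 tail and not for either H4 lysine, as far as the lists reach. The positions are those of build rn7, counted from 1. Regions are given by position alone, with no gene, exon or base sequence assigned, because no rn7 genome or annotation was used here, and the tenocyte identity of the cells could not be checked against marker genes.

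Depth limits what the lists can show. The lists held between 40681 and 62563 peaks, and the background coverage recovered from them, in fragments per base, was 2.17 in H3K9la control and 1.88 in H3K9la lactate. It was 1.32 and 1.55 in the H4K8la libraries and 1.53 and 2.84 in the H4K16la libraries, control first. To set the members beside the reach of the other lists, the summit coverage and local background of each member were scaled to each of these libraries. From both H3K9la libraries, 1844 of the 2208 members (83.5%, Wilson 95% interval 81.9 to 85.0) would then reach the lowest −log10 p called in every one of the 4 lists. All members are called H3K9la peaks, so these scaled values were high from the start, and they allow for no sampling error. The share was 89.2% for H4K8la control, the shallowest library, and 90.3% for H4K16la control when the H3K9la control values were scaled. It was 100% for H4K16la lactate, the deepest. The part of depth in the absence of the other marks was not tested.

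Members made up 10.2% (9.82 to 10.6) of the 21613 regions with H3K9la in both conditions. At the other end, 7268 of these regions (33.6%) had a peak in all 6 lists. The corresponding mark-only shares were 7.31% for H4K8la (1348 of 18439 regions, interval 6.94 to 7.70) and 9.32% for H4K16la (1645 of 17650, 8.90 to 9.76). These intervals cover counting error only, and the lists differ in length and depth. The count depended most on 2 of the other lists. Without the H4K8la control list, 3612 regions met the rule, and without the H4K16la lactate list 3340 did. Leaving out the H4K8la lactate list gave 2584 and leaving out the H4K16la control list 2705.

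The members were weak peaks. Their median −log10 q was 3.59 in control (quartiles 2.66 and 4.82, highest 17.0) and 3.12 with lactate (quartiles 2.40 and 3.99, highest 19.8). H3K9la regions that also carried another mark had medians of 5.73 and 4.28. In the lists of their own marks, H4K8la-only regions had medians of 3.50 and 2.88 and H4K16la-only regions 2.88 and 3.25. Low strength was thus not particular to the members. The summit of the median member stood on 17 fragments in control and 14 with lactate, against 24 and 18 where another mark was called. A −log10 q of at least 5 in both lists was reached by 102 members (4.62%) and by 5609 of the 19405 regions with another mark (28.9%). At 10 or more in both lists there were 2 members and 670 regions with another mark. In the plot of peak strength the members lie in the low corner of the range and thin out well below the strongest H3K9la regions.

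**Figure D1:**
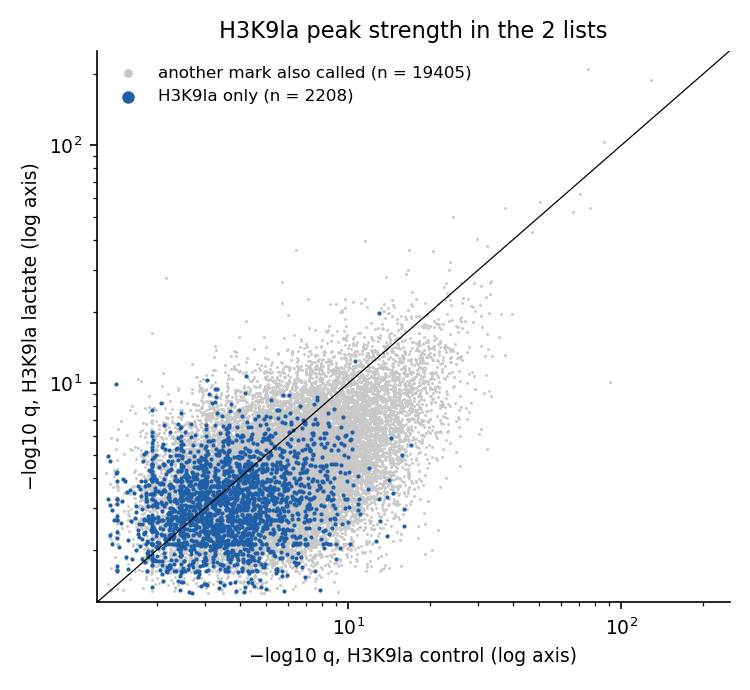
The −log10 q of the strongest H3K9la peak of each region in control (x axis) and with lactate (y axis), both on log axes, with members in blue, H3K9la regions that carry another mark in grey and a line of equal values. Members have medians of 3.59 and 3.12, and the highest value among them is 19.8.

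The share of regions without another mark was lower in each stronger class of H3K9la peaks. Where the lower of the 2 −log10 q values was below 2, 24.6% (22.5 to 26.8) of 1543 regions were members. The share was 17.8% from 2 to 3, 10.4% from 3 to 4 and 5.43% from 4 to 5. It was 2.72% from 5 to 7 and 0.431% (0.209 to 0.886) from 7 to 10, and at 10 or more it was 2 of 672 regions (0.298%, 0.0817 to 1.08). The intervals of the first 5 classes do not overlap each other, while those of the last pair do. When all 6 lists were held to −log10 q of at least 3, 1517 regions met the rule, 10.5% of the H3K9la regions then shared between conditions.

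**Figure D2:**
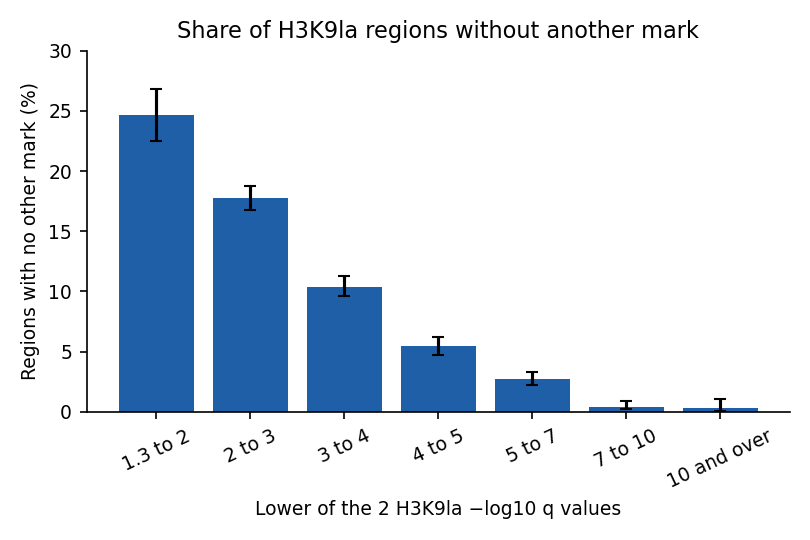
Bars give the percent of regions with H3K9la in both conditions that had no H4K8la or H4K16la peak, by the lower of the 2 −log10 q values, and lines the Wilson 95% intervals for counting error. The share runs from 24.6% in the weakest class to 0.298% in the strongest.

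A few members were strong in both conditions. The strongest, on chromosome 15 from 45596669 to 45598396, had a −log10 q of 13.0 in control and 19.8 with lactate. Its summits lay 5 bp apart and held 58 and 56 fragments, 26.8 and 29.8 times the genome-wide background of their libraries. Peaks of other marks came close to it, however, with an H4K16la lactate peak 252 bp away, an H4K8la lactate peak 256 bp away and an H4K8la control peak 282 bp away. The rule thus counts it as H3K9la alone by a gap shorter than the region itself, which is 1728 bp wide.

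The next strongest, on chromosome 14 from 17351604 to 17352401, stood clear of other marks. Its −log10 q was 10.6 in control and 12.5 with lactate, its summits held 45 and 32 fragments, and the nearest peak of another mark was 10028 bp away. It was the one named member that met the rule under all 13 alternatives in which single regions could be followed. These include holding H3K9la peaks to −log10 q of at least 10, which left only 2 members. On chromosome 9 from 89760537 to 89761126, −log10 q was 8.85 in control and 7.82 with lactate, with an H4K8la lactate peak 1233 bp away and the other 3 lists at 10596 bp or more. A second region on chromosome 14, from 8751439 to 8752308, had values of 7.68 and 8.80 and lay 362 bp from an H4K8la control peak.

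The remaining 4 of the 8 strongest lay on chromosome 6 from 106437961 to 106438659, chromosome 10 from 45202383 to 45202912, chromosome 1 from 256601842 to 256603150 and chromosome 5 from 77070521 to 77071527. Their −log10 q ran from 7.47 to 9.61 in control and from 7.19 to 8.48 with lactate. Other marks were 2759, 6080, 5000 and 11041 bp away, in that order. Among these 8 regions the summit coverage relative to background lay between 0.791 and 1.11 times the control value with lactate, and every exact 95% counting interval included 1. These 8 were named for high −log10 q in both lists, which favours ratios near 1. The intervals describe counting error and test nothing. By fold over local background all 8 were higher with lactate, with log2 ratios of 0.13 to 0.64, and 6 of them had opposite signs on the 2 scales.

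Peaks of other marks lay at a wide range of distances from the members, and the gaps that position alone would give were not computed. The median gap to the nearest peak of any of the 4 other lists was 4330 bp, and the quartiles were 1596 and 7670 bp. A peak of another mark lay within 200 bp of 109 members (4.94%), within 1 kb of 374 (16.9%) and within 5 kb of 1233 (55.8%). For 975 members (44.2%) no other list had a peak within 5 kb, and for 83 (3.76%) all 4 lists did. By list, the nearest peak lay at a median of 8371 bp for H4K8la control, 8884 bp for H4K16la lactate, 12986 bp for H4K16la control and 13588 bp for H4K8la lactate. The pair with the shorter gaps is also the pair of longer lists, with 61347 and 62563 peaks against 40681 and 42787. H4K8la-only and H4K16la-only regions had a median gap of 3516 and 5350 bp to the nearest peak of the lists of the other marks. Such a peak lay within 1 kb of 24.5% and 13.9% of them and within 5 kb of 61.6% and 47.2%. The shares of the members lay between these.

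**Figure D3:**
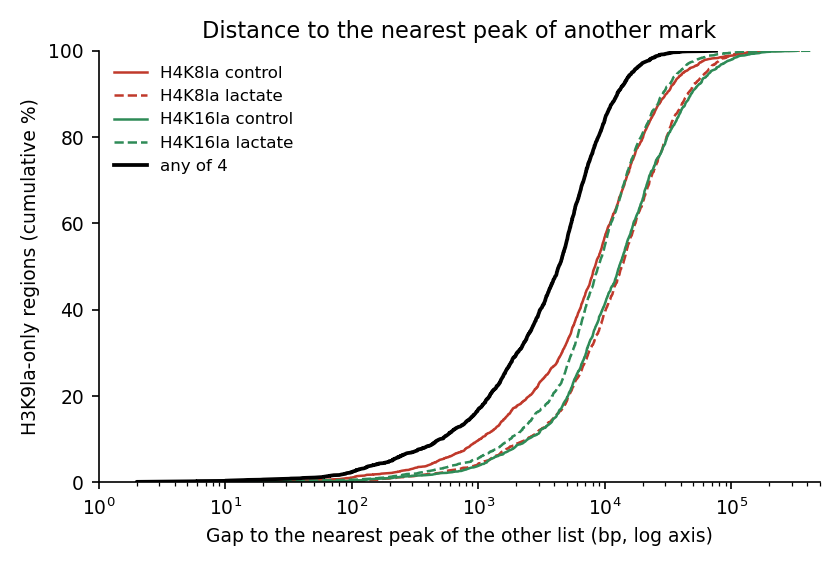
Cumulative percent of the 2208 members (y axis) by the gap to the nearest peak of each other list (x axis, bp, log axis), with control lists as solid and lactate lists as dashed lines and the nearest of any list in black. The black curve passes 16.9% at 1 kb and 55.8% at 5 kb.

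The edges of the rule were narrow. The members nearest to another mark were 2 bp away from it, on chromosome 8 from 75591172 to 75591630 (an H4K16la lactate peak), on chromosome 8 from 78625256 to 78625738 (an H4K8la control peak) and on chromosome 10 from 38356122 to 38357226 (an H4K8la control peak). Just outside, 3 regions failed the rule by 2 shared bases. They lay on chromosome 1 (30583455 to 30585294), chromosome 7 (112143215 to 112144545) and chromosome 16 (78319976 to 78320852). Their −log10 q values, 2.56, 6.23 and 7.63 in control and 5.06, 1.82 and 2.96 with lactate, stand beside those of the members just inside, 2.44, 5.02 and 7.46 in control and 3.47, 6.72 and 6.09 with lactate. The weakest members had a −log10 q of 1.32 in control and with lactate, at the floor of the lists.

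At the far end, the most isolated members with −log10 q of at least 3 in both lists were far from any other mark. One on chromosome X from 150078365 to 150079323 was 40750 bp from the nearest such peak, with −log10 q of 3.50 in control and 4.18 with lactate. One on chromosome 4 from 66497555 to 66498131 was 32122 bp away (4.89 and 4.56), one on chromosome 2 from 143970333 to 143970883 was 32088 bp away (3.64 and 4.34), and one on chromosome 15 from 40830272 to 40830934 was 29896 bp away (5.21 and 5.0). These 4 stood on 12 to 16 fragments in either library, and their local background was between 1.0 and 1.48 times the genome-wide one.

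Members were scattered. The median gap from a member to the next was 224845 bp, 81 members (3.67%) lay within 10 kb of another, and 2127 had no other member within 10 kb. An H3K9la region shared between conditions and carrying another mark lay within 20 kb of 979 members (44.3%), at a median of 24202 bp. Runs of 3 members less than 10 kb apart occurred at 3 places. The run on chromosome 3 from 156449592 to 156464877 had high local background. At its members it was 10.2 to 13.3 times genome-wide in control and 5.03 to 7.88 times with lactate. Within 10 kb of this run the H3K9la lists had 7 and 6 peaks, H4K8la had 4 in control and 1 with lactate, and H4K16la had 2 and 1. The runs on chromosome 17 (52913839 to 52929616) and chromosome 9 (56297207 to 56314232) had local backgrounds of up to 5.64 and 3.54 times in control.

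The members were narrower than other shared H3K9la regions, and the same stretch was not covered in full in both conditions. The peak of a member was 464.5 bp wide in control and 422 bp with lactate at the median, against 662 and 536 bp where another mark was called. Peaks of H4K8la-only regions had medians of 485.5 and 453 bp and those of H4K16la-only regions 421 and 437 bp. Narrow peaks were thus not particular to the members. Of the members, 2196 consisted of 1 control and 1 lactate peak. The pair overlapped over a median of 86.1% of the shorter peak, and in 695 members (31.5%, 29.6 to 33.4) the shorter lay wholly inside the longer. In 87 members (3.94%) the overlap was under 10% of the shorter peak. In regions with another mark the median overlap was 97.1%, and the shorter peak lay wholly inside the longer in 43.1%. The overlap was under 10% in 4.97% of them and in 4.86% of all shared H3K9la regions. Regions with another mark can also be joined through a peak of that mark. The summits of members were a median of 152 bp apart, within 100 bp in 826 members (37.4%) and over 300 bp apart in 485 (22.0%). Where another mark was called the median distance was 148 bp, with 39.3% within 100 bp and 24.6% over 300 bp apart.

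The widest members show how these pairs differ. The widest, on chromosome 4 from 62545556 to 62547608, spanned 2053 bp, and its summits were 539 bp apart with 28 fragments in control and 18 with lactate. The second, on chromosome 13 from 80117398 to 80119207, spanned 1810 bp and had an H4K8la control peak 54 bp away. The third, on chromosome 4 from 84653459 to 84655252, joined 4 peaks over 1794 bp, with summits 874 bp apart, and lay 13398 bp from any other mark. The fourth widest was the strongest member, on chromosome 15, whose summits coincided within 5 bp.

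With lactate, the summit coverage of members was slightly lower relative to genome-wide background and slightly higher relative to local background. The first measure had a median of 7.84 times background in control and 7.45 times with lactate, and a median log2 ratio of −0.09, with 59.3% of members lower. The second, the fold deposited by the authors, had a median of 3.34 in control and 3.51 with lactate, and a median log2 ratio of 0.10, with 62.0% of members higher. Over all 21613 regions with H3K9la in both conditions the median log2 ratios were −0.21 and 0.04, with 67.2% lower and 55.4% higher. Direction at the members thus depended on the background used. Of the H3K9la pair the lactate library had the lower background coverage, 1.88 against 2.17, and the part of depth in these medians was not tested.

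Past 1.5-fold in the coverage over genome-wide background, 276 members (12.5%) were lower with lactate, against 19.3% of all H3K9la regions shared between conditions. In the other direction 109 members (4.94%) were higher, against 4.19%. By fold over local background 42 members (1.90%) were lower and 94 (4.26%) higher past 1.5-fold, against 2.3% and 4.1%. At 2-fold over genome-wide background the numbers were 28 lower and 7 higher. The share of all shared H3K9la regions past 2-fold was not computed, so these counts describe the members only. Where the lower −log10 q was below 2 the median log2 ratio over genome-wide background was −0.03 for members and −0.28 for regions with another mark, and between 5 and 7 it was −0.15 and −0.18. A peak was required in both lists, which limits how far a weak peak can differ, and −log10 q also set these classes. The part of these limits in the differences between members and other regions was not tested. The ranks of the members were similar in both libraries, with a Spearman correlation of 0.69 across the 2208 regions. Over all shared H3K9la regions the correlation was 0.69 as well. Both values describe regions of 1 pair of libraries, chosen for having a peak in both.

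**Figure D4:**
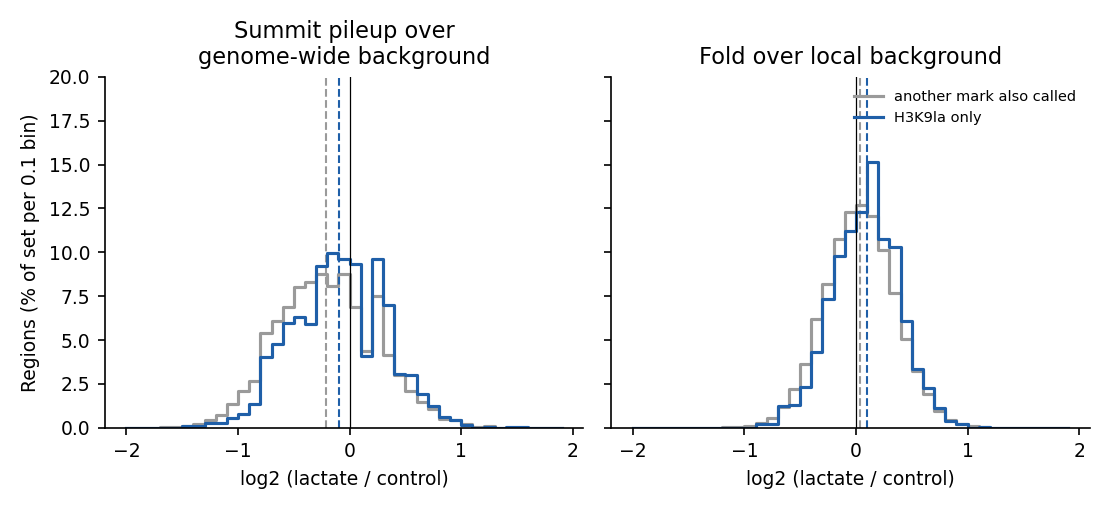
Histograms of log2 lactate over control for members (blue) and for H3K9la regions with another mark (grey), as percent of each set per bin, for summit coverage over genome-wide background (left) and fold over local background (right); dashed lines are medians. For members the medians are −0.09 on the left and 0.10 on the right.

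The members with the smallest ratio of lactate over control had strong control peaks and weak lactate peaks. On chromosome 4 from 45469611 to 45470341 the summit held 35 fragments in control and 11 with lactate, and −log10 q was 12.6 and 2.18. Relative to background the control value was 2.76 times the lactate value (exact 95% counting interval 1.37 to 6.02). On chromosome 5 from 71198714 to 71199600 the numbers were 38 and 12 fragments and −log10 q of 16 and 2.52, a ratio of 2.75 (1.4 to 5.77), and an H4K16la lactate peak lay 232 bp away. The other 2 lay on chromosome 1 (2751137 to 2752437), with 60 and 20 fragments, and chromosome 14 (57910638 to 57911283), with 47 and 16. They were named for being extreme, so these intervals describe counting error and test nothing.

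The members with the largest ratio of lactate over control had weak control peaks. On chromosome 16 from 6124830 to 6125750 the summit held 11 fragments in control and 28 with lactate, −log10 q was 1.41 and 9.89, and the ratio was 2.93 (1.42 to 6.53). The summits of that region were 575 bp apart, and an H4K16la lactate peak lay 574 bp from it. On chromosome 11 from 82356117 to 82356726 there were 10 and 24 fragments, with −log10 q of 2.05 and 8.25 and a ratio of 2.77 (1.28 to 6.48). The other 2, on chromosome 2 (11751960 to 11752589) and chromosome 1 (235027232 to 235027634), held 9 and 10 fragments in control and 18 each with lactate. Their counting intervals were 0.984 to 5.83 and 0.908 to 5.03. The members with the largest ratios were also named for being extreme, so these intervals describe counting error and test nothing.

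Local background differed between the libraries by more than the summits did, with a median log2 ratio of −0.22 against −0.09. Local background, the coverage the caller used as reference around each peak, was 1.96 times the genome-wide level in control and 1.70 times with lactate at the median member. It was lower with lactate at 70.5% of members. Over all regions with H3K9la in both conditions it was lower at 77.4%, with a median log2 ratio of −0.30. A local background of at least 5 times the genome-wide level was found at 200 members (9.06%) in control and at 27 (1.22%) with lactate. Across all regions with H3K9la in both conditions the numbers were 2295 (10.6%) and 324 (1.5%). The sources used here do not say whether a control antibody library entered this reference.

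The difference was larger where local background was high. Members were divided into 5 classes by the geometric mean of their local background in both libraries. Local background does not go below the genome-wide level, so a ratio near 0 is built into the lowest class. There, where the medians were 1.02 in control and 1.07 with lactate, the median log2 ratio of local background was 0.00 and that of summit coverage 0.09, for 513 members. In the middle class the medians were −0.28 and −0.10, for 533 members. At 4 times and above, they were −0.76 and −0.52, for 191 members. In that top class, local background was lower with lactate at 99% of members and summit coverage at 93.7%, while the median log2 ratio of fold over local background was 0.21. Regions with another mark gave −0.74 for local background and −0.59 for summit coverage in this class. The highest local background was found on chromosome 6 from 127315446 to 127316457, with 19.1 times the genome-wide level in control and 9.55 times with lactate. Its summit held 74 and 44 fragments and its −log10 q was 3.24 and 4.08. The region on chromosome 10 from 38362024 to 38362647 followed, with 16.2 and 8.60 times, 89 and 46 fragments and −log10 q of 10.2 and 5.82. It lies beside the member from 38356122 to 38357226, which had 15.4 and 7.81 times. These regions were chosen after their values were seen.

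**Figure D5:**
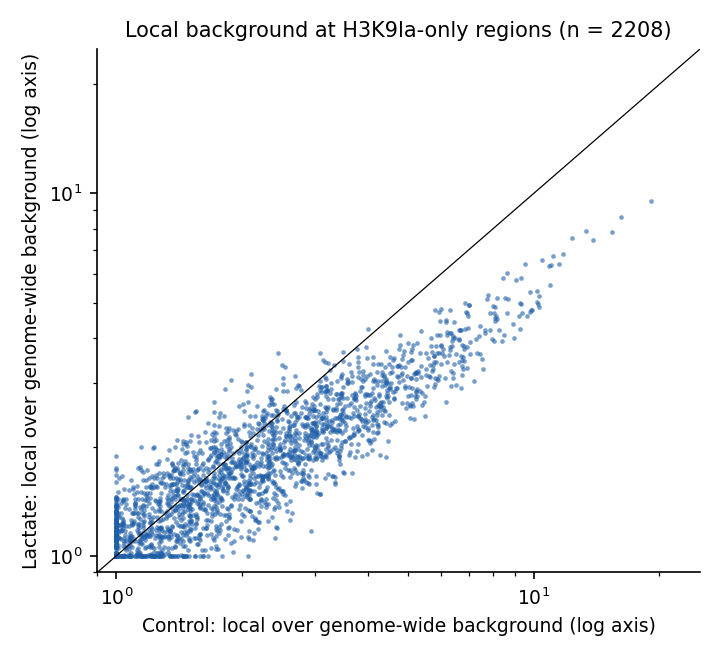
Local over genome-wide background at each of the 2208 members in control (x axis) and with lactate (y axis), both on log axes, with a line of equal values. Points follow the line near 1 and lie below it at high values, up to 19.1 in control against 9.55 with lactate.

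Where another mark had a peak within 5 kb of a member, its own local background could be set beside that of H3K9la. Local background enters the calling of every peak, and so the choice of members, and these values are a description. At the 714 members with an H4K8la control peak in that range, local background was 3.03 times genome-wide for H3K9la control and 2.55 times at the H4K8la peak, and H3K9la was higher at 68.2% of them. For the 430 members near an H4K16la control peak the values were 2.88 and 2.02, with H3K9la higher at 77.0%. With lactate they were 2.18 and 1.88 near H4K8la (413 members, 70.7%) and 1.93 and 1.67 near H4K16la (589 members, 70.6%). H3K9la lists had the higher local background over all their peaks as well, 1.98 against 1.85 and 1.70 in control and 1.66 against 1.51 and 1.5 with lactate.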

How the data were processed

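Peak lists of 6 CUT&Tag libraries of rat tenocytes were used, grouped by sample title. The free-text treatment field, which names lactate for every library, was set aside. FastQC, cutadapt, Bowtie2, deepTools, MACS2 and build rn7 are named per the submitters' processing notes. The sources used here give neither versions nor settings. Each deposited list holds, per peak, the authors' score, their fold (a ratio of summit coverage to local background), their −log10 p and −log10 q, and positions. The lists were called per library.

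From these, coverage was recovered. The fold was read as (pileup + 1) over (local background + 1) and p as the upper Poisson tail, and a whole-number pileup meeting both within 0.002 of −log10 p was found for every H3K9la peak. This reading is inferred from the values. Genome-wide background was the local background found most often in a library. Where a list had several peaks in a region, the one of highest −log10 q was used. Shares have Wilson 95% intervals and ratios of single summits exact ones; all cover counting error only, since PCR copies and overlapping fragments are not independent. With 1 library per group no test was made.

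Named regions follow a rule: the 8 of highest lower −log10 q, the 4 of largest and 4 of smallest ratio with −log10 q of at least 5 in 1 or both lists, the 4 widest, the 4 most isolated with −log10 q of at least 3 in both lists, and 3 on each side of the edge of the rule. The members, this rule and the alternatives were chosen with earlier results of these data known. The restriction by scaled depth was added after seeing the data. Scripts were tested on simulated data. Python 3.11.15, numpy 2.4.6, pandas 2.3.3, scipy 1.17.1 and matplotlib 3.10.9 were used.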

Additional observations from a re-analysis of the deposited data

Results flagged for a closer look

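The fold over local background with lactate had medians of opposite sign at H3K9la-only and H4K16la-only regions. Its median log2 ratio of lactate over control was 0.0961 at the 2208 H3K9la-only regions and −0.173 at the 1645 H4K16la-only regions. At the 1348 H4K8la-only regions it was −0.0025, with 49.9% above 0. The difference was not tested: there is 1 library per condition and mark. By summit coverage over genome-wide background both medians were negative, −0.09 and −0.36. The lactate library was the shallower one for H3K9la (background 1.88 against 2.17) and the deeper one for H4K16la (2.84 against 1.53), and the part of depth in the difference was not tested.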

How the results depend on the processing

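Most alternatives kept the number of members within 1.5 times 2208, and those that did not are the stricter H3K9la thresholds and leaving out the H4K8la control or the H4K16la lactate list. Holding H3K9la peaks to −log10 q of 5 or more left 102 members (1.79% of the shared H3K9la regions), with median −log10 q of 6.96 and 6.0 (control, then lactate), a median log2 ratio of −0.15 and 11.8% with another mark within 1 kb. At 10 there were 2 members (0.298%), with 11.8 and 16.1, −0.066 and 50%. With all lists at 3 the medians were 4.63 and 4.03 and the share near another mark 8.70%. Equal numbers of peaks gave 9.72%, 4.44 and 3.38, −0.21 and 12.4%. Merging within 500 bp gave medians of 3.49 and 3.04 and 7.56% near another mark. A margin of 1000 bp gave a share of 8.49% and, by construction, 0% near another mark. Counting an overlap from 50% of the shorter peak gave 9.33%.

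Without the H4K8la control list there were 3612 members (16.8%), with 3.87 and 3.25, −0.17 and 12.5%. Without the H4K16la lactate list there were 3340 (15.5%), with 3.64 and 3.22 and 13.3%. Without H4K8la lactate and H4K16la control the shares were 12% and 12.5%. An alternative added after seeing the data kept the 1844 members whose scaled H3K9la values reached the lowest −log10 p of every other list. It gave 8.53%, 3.82 and 3.25 and −0.14. It does not show whether the other marks could have been called there. The median log2 ratio was 0.10 by fold over local background and −0.059 by −log10 p. At 2-fold 7 members were higher and 28 lower, with no share computed over all shared H3K9la regions. Past 1.5-fold by fold over local background 42 members were lower (1.90%, against 2.3% of all those regions). Of the 26 named regions, 10 had opposite signs over genome-wide and over local background. Of these, 1 was past 1.5-fold over genome-wide background, on chromosome 10 from 38356122 to 38357226, with log2 ratios of −0.62 and 0.32. The cause of these changes was not tested where the setting itself does not give it. No paired analysis was possible because each group has 1 library.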

Other observations

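Chromosome X held 25 of the 2208 H3K9la-only regions (1.13%, Wilson 95% interval 0.768 to 1.67). It held 41 of the 1348 H4K8la-only regions (3.04%, 2.25 to 4.10) and 52 of the 1645 H4K16la-only regions (3.16%, 2.42 to 4.12). Among all regions called in both conditions the shares on X were 1.03% for H3K9la, 1.45% for H4K8la and 1.59% for H4K16la, so the H3K9la-only share lay near that of its own mark. The lists held 1.54% and 1.84% of peaks on X for H3K9la, 2.28% and 2.92% for H4K8la and 2.48% and 2.41% for H4K16la, control first. Within the H3K9la regions shared between conditions, members made up 11.3% (7.75 to 16.1) on X and 10.2% over all chromosomes. Whether the marks differ on X was not tested, with 1 library per group.

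Among the autosomes the share of members in the shared H3K9la regions ran from 7.28% on chromosome 12 (5.45 to 9.66) to 12.4% on chromosome 16 (10.0 to 15.3). These are the lowest and highest of the autosomes, picked after all were seen. Chromosome 16 also held the 1 Mb window with most members, 8 of the 29 shared H3K9la regions from 78000001 to 79000000. Windows with 7 members lay on chromosome 16 from 56000001 to 57000000, among 16 shared regions, and on chromosome 4 from 80000001 to 81000000, among 15. These were picked as the highest of 1228 windows with a member. Of those windows, 647 held 1 member.

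A local background of at least 5 times genome-wide was found in control at 9.06% of the H3K9la-only regions and 11.3% of the H4K8la-only regions, but at 2 of the 1645 H4K16la-only regions (0.122%). Over all regions called in both conditions the control shares were 10.6%, 13.5% and 0.986%. With lactate they were 1.5%, 1.0% and 0.266%.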
